A study of Mus musculus with 12 samples.

Results

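The nuclear genes for respiratory complexes II to V were examined in primary mouse aortic smooth muscle cells. Members were the rows of the deposited gene table whose symbol belongs to the succinate dehydrogenase (Sdh and Sdhaf), ubiquinol-cytochrome c reductase (Uqcr and Cyc1), cytochrome c (Cycs), cytochrome c oxidase (nuclear Cox) or ATP synthase (Atp5) families. This rule found 72 of 29462 rows. Complex II had 8 members, complex III with cytochrome c 10, complex IV 26 and complex V 17, and 11 rows were pseudogene or retrocopy rows named after a member.

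The cells came from C57BL/6J mice (wild type, WT) and from mice lacking cystathionine gamma-lyase (CSE, encoded by Cth) in the whole body (knockout, KO), with 6 libraries of each genotype. All 12 samples had received angiotensin II at 1 uM for 24 h, so the comparison is between genotypes under that peptide, and untreated cells were not analysed here. The labels give neither the strain background of the knockout mice nor the age of either group. Nothing in the labels ties a library to its own animal or culture. A p-value here therefore reflects only how much these libraries vary, and that variation may be technical. CSE makes hydrogen sulfide from cysteine in the vessel wall, and angiotensin II is a vasoconstrictor hormone that acts on smooth muscle.

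Oxidative phosphorylation passes electrons from succinate (through complex II) or from ubiquinol to complex III, then through the soluble carrier cytochrome c to complex IV, which reduces oxygen. Complexes III and IV pump protons, and complex V, the ATP synthase, uses the returning protons to make ATP. Complex II is encoded wholly in the nucleus. The other complexes combine nuclear subunits with a few made inside the mitochondrion, and each needs assembly factors that are not part of the finished enzyme. Vascular smooth muscle cells are known for drawing on glycolysis as well as on respiration.

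The upstream sequences of these genes are known for sites of nuclear respiratory factor 1 (NRF1) and of ETS-family factors such as GABP. RefSeq promoter windows of 300 bases (250 before to 50 after a transcript start, build GRCm38.p6) matched 48 of the 61 members that were not pseudogene rows, with 52 windows. The NRF1 letters (GCGCA and GCGC with any base between them) were in 23.1% of those 52 windows and in 4.6% of all 32851 windows. The ETS letters CCGGAAG were in 42.3% and in 8.86%. The YY1 letters AAGATGGC were in 9.62% and in 2.75%. Both strands were searched, and no motifs overlapped in the member windows. Stretches of 125 bases, from 170 to 46 bases before the start and outside annotated exons, are printed for a complex IV subunit and a complex III subunit that were higher in KO, for a complex V subunit that was lower and for the member with the largest fall. Capitals mark the NRF1 letters in Cox6a1 and Atp5h and the ETS letters in Uqcr11, and the Cox7a2l stretch held none of the letters searched. The RefSeq start used for Cox7a2l lies inside the longer gene span that GENCODE M21 gives.
Cox6a1 (chr5:115349004-115349128, minus strand): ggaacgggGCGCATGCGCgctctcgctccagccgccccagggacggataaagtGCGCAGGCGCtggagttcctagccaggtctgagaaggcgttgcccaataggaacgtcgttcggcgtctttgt
Uqcr11 (chr10:80406867-80406991, minus strand): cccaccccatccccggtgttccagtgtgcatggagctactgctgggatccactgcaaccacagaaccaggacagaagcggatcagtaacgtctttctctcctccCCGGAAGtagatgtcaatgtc
Atp5h (chr11:115419965-115420089, minus strand): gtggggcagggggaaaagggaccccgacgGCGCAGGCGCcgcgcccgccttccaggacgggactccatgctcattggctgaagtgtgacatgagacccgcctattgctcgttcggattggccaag
Cox7a2l (chr17:83514379-83514503, minus strand): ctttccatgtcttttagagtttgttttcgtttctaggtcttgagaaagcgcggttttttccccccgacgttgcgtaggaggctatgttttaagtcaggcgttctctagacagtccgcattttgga

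Values are FPKM, fragments per kilobase of transcript scaled to the mapped fragments of the library, which give a gene's level relative to the other genes of its library and per transcript length. The files give no read counts, so the depth behind a value is unknown and no counting interval can be given. In these bulk cultures, fewer cells of a type and less RNA per cell cannot be told apart. The summed FPKM of a library ran from 255538 (KO replicate 6) to 281432. KO replicates 5 and 6 stood apart, with correlations of log2(FPKM + 1) of 0.947 to 0.96 with KO replicates 1 to 4, which correlated at 0.993 or above among themselves. The 6 proliferation markers summed to 110 to 154 FPKM in WT, 91.2 to 99.3 in KO replicates 1 to 4, 216 in KO replicate 5 and 284 in KO replicate 6. Mki67 alone gave 119.95 FPKM in KO replicate 6 and 31.46 in KO replicate 5. The markers did not move together. In KO replicates 1 to 4, Top2a (22.79 to 24.99 FPKM) was below WT (41.02 to 59.29), while Cdk1 (14.26 to 16.32) was above WT (9.93 to 13.94). Of 9 contractile smooth muscle markers, 6 were under 1 FPKM in every library, among them Myh11, the smooth muscle myosin heavy chain. The sum of the 9 ran from 124 to 152 FPKM in WT and from 86.4 to 169 in KO. It was carried by Acta2 (120.1 and 101.8 on average), with Smtn at 13 and 11.7. Of 10 epithelial and mesothelial markers, 5 were under 1 FPKM in every library, and the sum, carried by Cdh1 and Krt19, ran from 146 to 155 FPKM in WT and from 44.6 to 67.9 in KO. Cdh1, the epithelial cadherin, averaged 65 FPKM in WT and 0.86 in KO, and the mesothelial genes Wt1 (0.117 and 1.51) and Upk3b (0.448 and 2.1) went the other way. A further mesothelial gene, Msln (5.96 and 3.61), was lower in KO like Cdh1, with all KO libraries below all WT libraries. The 7 fibroblast markers summed to 541 to 572 FPKM in WT and to 425 to 1050 in KO, a sum carried by Col1a1 (487.7 and 624 on average). In the same list Col3a1 averaged 0.593 FPKM in WT and 106.5 in KO, Dpt 0.0433 and 15.5 and Pdgfra 1.08 and 10.4, each with all KO libraries above all WT libraries. Dcn averaged 68.4 and 101.4 FPKM, but its KO replicates 5 and 6 (26.69 and 22.08) were below all WT libraries. Lum and Pi16 were under 1 FPKM in every library. The 6 macrophage and leukocyte markers summed to 2.09 to 2.93 FPKM in WT and 8.4 to 14.9 in KO. That sum was carried by Cd68 (1.62 and 8.19 on average), Csf1r (0.707 and 3.05) and Lyz2 (0.1 and 1.07). The other 3, Ptprc, Adgre1 and Itgam, were under 1 FPKM in every library. The 6 endothelial markers, all under 1 FPKM in every library, summed to 0.13 to 0.3 and 0.59 to 0.99. Kdr carried the KO sum (0.00333 and 0.623 on average), while Pecam1 (0.137 and 0.0867) was lower in KO. No marker gene was at 0 in every library. The part of these marker differences in the results below was not tested. The Cth row held 0 to 0.08 FPKM in WT libraries and 0 to 0.02 in KO libraries, too low in both genotypes to check the labels.

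Testing was by limma on log2(FPKM + 1) and took in genes that reached 1 FPKM in 6 or more libraries, with p-values adjusted by the Benjamini-Hochberg method over all 11831 genes tested. A change below means an adjusted p of at most 0.05, and log2 differences are KO minus WT on the log2(FPKM + 1) scale, which understates the change of low genes. Of the 72 members, 59 were tested, of which 35 were higher in KO (59.3%), 9 were lower (15.3%) and 15 did not pass. Over all genes tested 63.5% passed, 32.6% higher and 30.9% lower. The counts by complex and by part below are to be read beside these shares. The median log2 difference was 0.26 over the tested members and 0.01 over all genes tested. All 6 KO values lay above all 6 WT values for 18 tested members (30.5%) and below them for 7 (11.9%), against 23.8% and 22.5% of all genes. One tested member, Sdhaf3, reached 1 FPKM in WT libraries only, so the level needed for the test favoured a lower call. Over the 58 tested members that reached 1 FPKM in libraries of both genotypes, 35 were higher (60.3%) and 8 lower (13.8%), against 30.8% and 30.9% of the 11264 such genes.

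KO replicate 6 sat low for many members. Among the 35 called higher, it was the lowest KO library for 25 (71.4%) and lay inside the WT range for 12 (34.3%). Over the 3858 genes called higher in all, these shares were 32.3% and 11.1%. With KO replicates 1 to 4 alone, 40 members were higher and 9 lower, where 39.9% of all genes were higher and 37.1% lower.

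**Figure D1:**
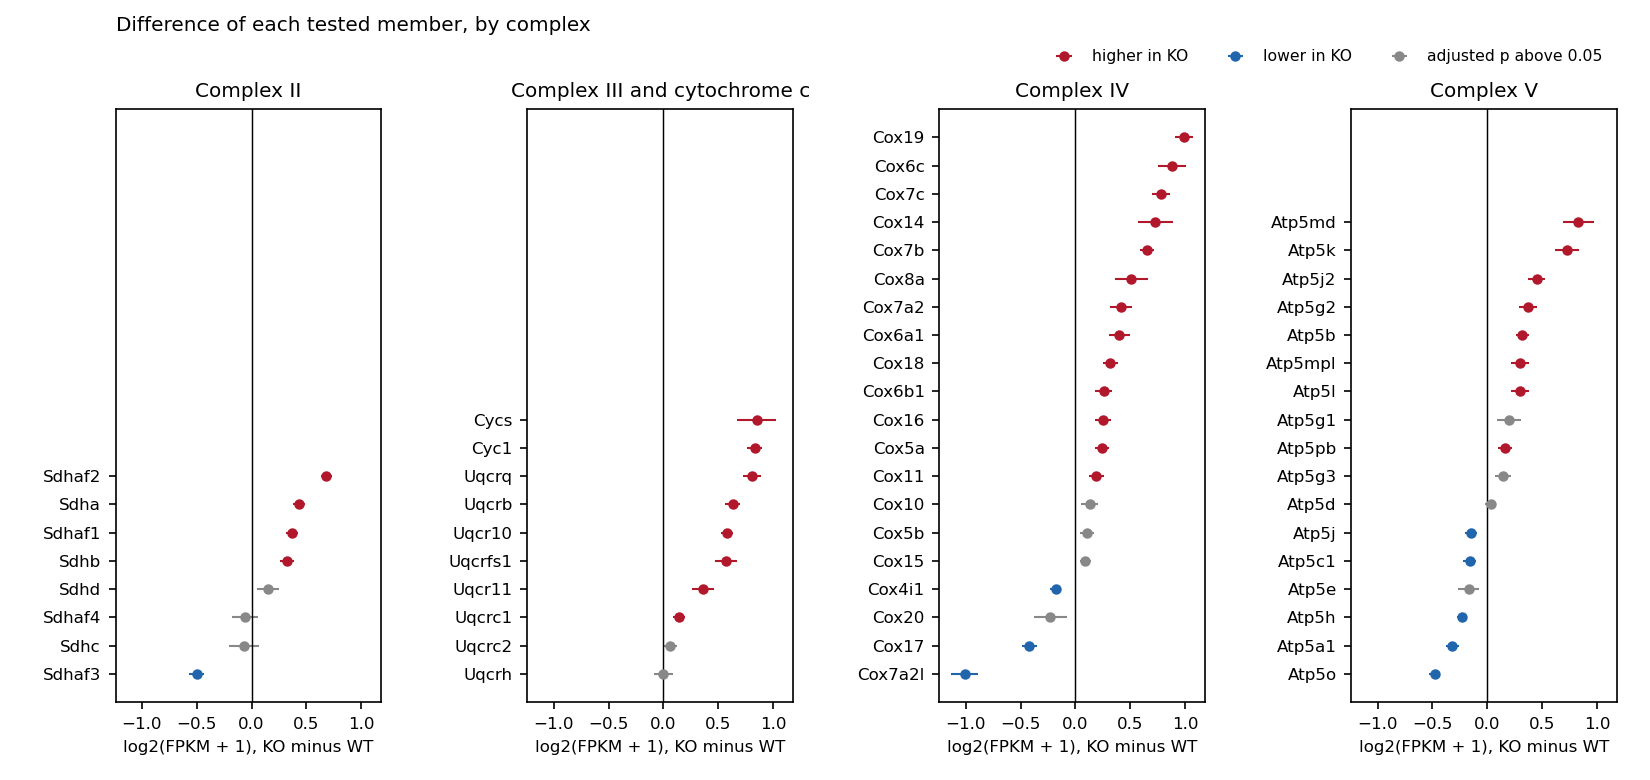
Difference of each tested member that is not a pseudogene row. The x axis is the mean log2(FPKM + 1) of 6 KO libraries minus that of 6 WT libraries, whiskers are 1 SE and colour gives the call at an adjusted p of 0.05; complex III has no member on the lower side, while complex IV reaches from -1.01 (Cox7a2l) to 0.99 (Cox19).

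Complex II was higher in KO in its catalytic part. Of its 4 subunits, 2 rose (50%, against 32.6% of all genes tested) and the others did not pass. Sdha, the flavoprotein that oxidises succinate (chr13:74322254-74350280, minus strand, GRCm38), read 42.4, 41.39, 43.25, 43.95, 41.75 and 44.46 FPKM in WT replicates 1 to 6 and 62.55, 60.47, 60.39, 57.01, 58.93 and 50.85 FPKM in KO replicates 1 to 6. Every KO library was above every WT library, with KO replicate 6 the lowest of the 6. The mean rose 1.36-fold, from 42.9 ± 1.23 to 58.4 ± 4.12 FPKM (SD, n = 6 each), a log2 difference of 0.43 ± 0.054 (SE; limma adjusted p = 1.1e-05). Sdhb, the iron-sulfur subunit that takes the electrons from the flavin, rose 1.27-fold, from 15.9 ± 0.756 to 20.1 ± 1.9 FPKM (limma adjusted p = 0.00068), also without overlap.

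The membrane anchors, which hold the complex in the inner membrane and bind ubiquinone, did not pass. Sdhc ran from 25.95 to 27.31 FPKM in WT and read 28.6, 30.37, 28.39, 28.04, 24.8 and 14.81 FPKM in KO. The first 4 KO libraries were above the WT range and the last 2 below it. The log2 difference of Sdhc was -0.07 over all libraries (limma adjusted p = 0.69) and 0.12 with KO replicates 1 to 4 alone (limma adjusted p = 0.0022). Sdhd averaged 41.9 ± 2.55 FPKM in WT and 47.2 ± 9.14 in KO (limma adjusted p = 0.23), with 63.77 in KO replicate 5 and 35.91 in KO replicate 6. Without KO replicate 6 the difference of Sdhd passed, at 0.22 (limma adjusted p = 0.038).

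Of the 4 assembly factors of complex II, 2 rose (50%, against 32.6% of all genes tested). Sdhaf3 was called lower after passing the level needed for the test through WT only. Sdhaf2, which inserts the flavin into Sdha, read 4.72, 4.31, 4.49, 4.52, 4.66 and 4.6 FPKM in WT and 8.25, 8.17, 7.78, 7.77, 8.44 and 6.96 FPKM in KO. Each genotype kept to a narrow band and the bands did not meet. Sdhaf2 rose 1.74-fold, a log2 difference of 0.68 ± 0.051 (SE; limma adjusted p = 8.8e-08). Sdhaf1, an assembly factor for the iron-sulfur subunit, rose 1.4-fold, from 2.63 to 3.68 FPKM (limma adjusted p = 6.1e-05). Sdhaf3, a further factor acting on that subunit, averaged 1.47 ± 0.13 FPKM in WT and 0.75 ± 0.152 in KO, with every KO library below every WT library. No p is given for Sdhaf3 because of how it entered the test. Sdhaf4, which helps the flavoprotein join the iron-sulfur subunit, read 14.15, 13.67, 14.72, 13.33, 15.28 and 11.56 FPKM in WT and 17.4, 14.59, 13.9, 13.37, 11.4 and 9.35 FPKM in KO. The groups overlapped, with KO replicates 5 and 6 at the low end (limma adjusted p = 0.67).

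Complex III and cytochrome c moved in one direction. Of 10 members, all tested, 8 rose (80%, against 32.6% of all genes tested) and none fell (against 30.9%). The median log2 difference was 0.58. Cyc1, the cytochrome c1 that hands electrons to cytochrome c, read 26.22, 29.3, 27.04, 27.61, 26.67 and 27.15 FPKM in WT and 51.13, 44.29, 47.9, 45.12, 59.1 and 49.95 FPKM in KO. The lowest KO value was well above the highest WT value, and KO replicate 6 was among the other KO libraries. Cyc1 rose 1.81-fold, from 27.3 ± 1.07 to 49.6 ± 5.36 FPKM, a log2 difference of 0.83 ± 0.067 (SE; limma adjusted p = 1.8e-07). Cycs, cytochrome c itself, read 12.92, 13.06, 13.53, 13.75, 10.94 and 10.39 FPKM in WT and 19.82, 18.03, 18.48, 18.63, 39.45 and 30.95 FPKM in KO. All KO values were above all WT values, and KO replicates 5 and 6 were the highest, the reverse of their place for Sdhc. Cycs rose 1.95-fold over all libraries (log2 difference 0.85 ± 0.18 SE, limma adjusted p = 0.00098).

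The remaining catalytic and core proteins of complex III differed among themselves. Uqcrfs1, the Rieske iron-sulfur protein, read 33.64, 38.04, 37.29, 35.27, 36.71 and 35.32 FPKM in WT and 57.63, 57.1, 59.33, 59.38, 57.81 and 36.81 FPKM in KO. KO replicates 1 to 5 were close together and above WT, while KO replicate 6 fell inside the WT range. Uqcrfs1 rose 1.52-fold (limma adjusted p = 0.00033). Uqcrc1 and Uqcrc2, the core proteins on the matrix side, moved little: Uqcrc1 went from 24.7 to 27.3 FPKM (limma adjusted p = 0.041), a call that was lost without WT replicate 1, 2, 3 or 6 and without KO replicate 1 or 5 (adjusted p 0.052 to 0.086). Uqcrc2 had a log2 difference of 0.06 (limma adjusted p = 0.48), which passed at 0.11 without KO replicate 6 (limma adjusted p = 0.024).

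Of the 5 small supernumerary subunits of complex III, which surround the core, 4 rose (80%, against 32.6% of all genes tested). Uqcr10 read 59.08, 64.43, 61.19, 60.95, 55.56 and 57.1 FPKM in WT and 96.28, 84.27, 88.37, 88.45, 98.41 and 84.09 FPKM in KO, with no overlap. It rose 1.51-fold (log2 difference 0.58 ± 0.056 SE, limma adjusted p = 1e-06). Uqcrq, a small subunit next to the ubiquinone site, read 23.53, 21.98, 24.94, 24.92, 21.8 and 19.5 FPKM in WT and 43.25, 42.21, 42.42, 40.3, 44.24 and 32.43 FPKM in KO. KO replicate 6 was the lowest KO library, yet above all of WT, and Uqcrq rose 1.79-fold (limma adjusted p = 1.7e-06). Uqcrb rose 1.57-fold, from 35.5 ± 2.2 to 55.8 ± 5.81 FPKM (limma adjusted p = 4.1e-06), again without overlap. Uqcr11 rose 1.3-fold (limma adjusted p = 0.0053), with KO replicate 6 inside the WT range. Uqcrh, the hinge protein between cytochrome c1 and cytochrome c, was the exception, with means of 42.9 ± 2.06 and 43.4 ± 7.08 FPKM (limma adjusted p = 0.97).

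**Figure D2:**
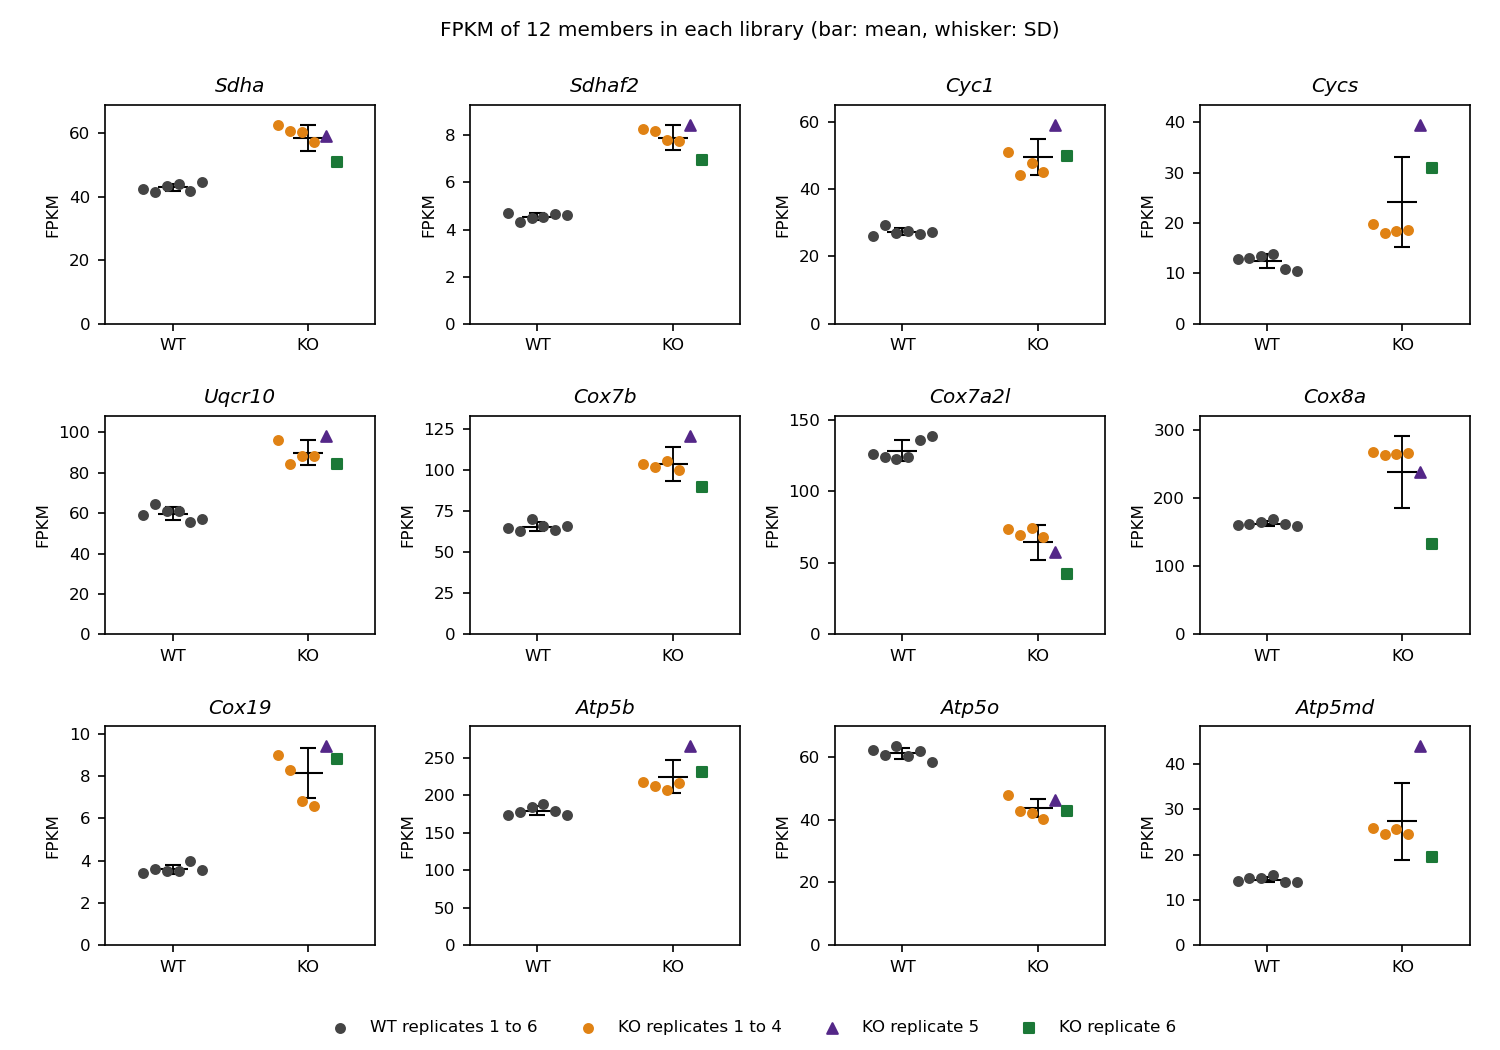
FPKM of 12 members in each library (y axis, from 0), with the mean and SD of each genotype. KO replicates 5 and 6 have their own symbols: KO replicate 6 is at 133.07 FPKM for Cox8a, under all WT libraries, and KO replicates 5 and 6 are the highest for Cycs.

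Complex IV had 20 tested members, of which 13 rose (65%), 3 fell (15%) and 4 did not pass (median log2 difference 0.26). Of all genes tested 32.6% were higher and 30.9% lower. Among the 11 ubiquitous subunits, 8 rose (72.7%) and 2 fell (18.2%). These nuclear subunits wrap the catalytic core that is encoded in mitochondrial DNA. Cox7b read 64.85, 62.91, 70.52, 66.34, 63.75 and 66.05 FPKM in WT and 103.81, 102.14, 105.63, 100.42, 121.19 and 89.8 FPKM in KO. KO replicate 6 was the lowest KO library but still above WT, and Cox7b rose 1.58-fold (log2 difference 0.65 ± 0.064 SE, limma adjusted p = 1.4e-06). Cox7c rose 1.75-fold, from 60.2 ± 2.26 to 105.2 ± 13.9 FPKM, and Cox6c 1.92-fold, from 23.4 ± 0.756 to 45.1 ± 9.33 FPKM, both without overlap. Cox6c stood at 46.6 to 51.54 FPKM in KO replicates 1 to 5 and at 26.44 in KO replicate 6.

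Some abundant subunits depended more on that library. Cox8a, among the most abundant members, read 160.79, 162.02, 165.44, 169, 162.01 and 158.75 FPKM in WT and 268.43, 263.18, 265.99, 266.39, 238.54 and 133.07 FPKM in KO. KO replicates 1 to 5 were all above WT and KO replicate 6 below all of WT. The call for Cox8a held over all libraries (1.47-fold, limma adjusted p = 0.0082). Cox6b1 read 86.14, 88.6, 93.27, 86.79, 86.82 and 90.88 FPKM in WT and 122.15, 112.45, 109.88, 105.23, 111.78 and 83.25 FPKM in KO. Its KO replicate 6 was again the one library below WT, and Cox6b1 rose 1.21-fold over all (limma adjusted p = 0.0093). Cox6a1 rose 1.34-fold, from 118.4 ± 5.03 to 158.4 ± 24.2 FPKM, and Cox5a 1.2-fold, both with KO replicate 6 inside the WT range. Cox5b, at 47.2 and 51.3 FPKM, did not pass (limma adjusted p = 0.14), though it did without KO replicate 6 (log2 difference 0.16, limma adjusted p = 0.0087).

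The 2 ubiquitous subunits that fell were Cox4i1 and Cox7a2l. Cox4i1, the ubiquitous form of the subunit through which ATP is known to act on the enzyme, fell 1.13-fold, from 136.3 ± 3.81 to 120.7 ± 8.12 FPKM (limma adjusted p = 0.0098), with every KO library below WT. Cox7a2l (chr17:83501918-83517330, minus strand, GRCm38), a relative of Cox7a2 known as a factor of supercomplexes (joined respiratory complexes), read 126.05, 124.02, 122.76, 123.89, 135.98 and 139.18 FPKM in WT. In KO it read 73.59, 69.65, 74.25, 68.29, 57.86 and 42.21 FPKM. Every KO library was far below every WT library, and KO replicates 5 and 6 were the lowest. The strain background of the knockout mice is not given, so strain and genotype cannot be told apart here. Cox7a2l fell 2-fold, from 128.6 ± 7.07 to 64.3 ± 12.3 FPKM, a log2 difference of -1.01 ± 0.12 (SE; limma adjusted p = 6.6e-06), the largest fall among the tested members. Its paralog Cox7a2 read 36.48, 35.77, 36.26, 36.62, 34.7 and 33.11 FPKM in WT and 52.8, 46.84, 46.3, 43.54, 63.51 and 37.31 FPKM in KO. All its KO values were above its WT values, KO replicate 6 only just, and Cox7a2 rose 1.36-fold (limma adjusted p = 0.0025).

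As a share of the summed FPKM of the pair, Cox7a2l made up 77.6, 77.6, 77.2, 77.2, 79.7 and 80.8% in WT and 58.2, 59.8, 61.6, 61.1, 47.7 and 53.1% in KO. The share was thus lower in each KO library, on average by 21.4 percentage points (78.3% ± 1.52 against 56.9% ± 5.46, SD, n = 6 each). The two-sided exact permutation p was 0.00216, the smallest that assignments of 12 libraries to genotypes of 6 can give, and 0.00361 adjusted over the 5 isoform shares computed.

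Of the 6 isoforms of complex IV known from heart, lung, muscle or testis, 5 were under 1 FPKM in every library. The sixth, Cox6b2, was above it in 5 KO libraries, and none of the 6 met the level needed for the test across genes. Cox6b2, the testis form of subunit 6B, read 0, 0.15, 0.04, 0.09, 0.36 and 0.08 FPKM in WT and 3.46, 2.43, 1.64, 1.89, 0.58 and 1.1 FPKM in KO. The groups did not overlap, with KO replicate 5 closest to WT (two-sided exact permutation p = 0.00216). Its share of the Cox6b1 and Cox6b2 pair was 0.136% ± 0.147 in WT and 1.65% ± 0.76 in KO (n = 6 each), so Cox6b1 remained nearly all of the pair. No p is given for this share, because Cox6b2 reached the 1 FPKM needed to compute a share in KO libraries only. Cox4i2, the form known from lung, was listed at 0 in 5 WT libraries and at 0.16 in the sixth, and read 0.67, 0.74, 0.73, 0.33, 0 and 0.58 FPKM in KO (exact permutation p = 0.0152). Cox7a1, the heart and muscle form, had a mean of 0.443 FPKM across WT and 0.183 across KO (exact permutation p = 0.0476), a difference that missed the threshold without WT replicate 1, 2, 3 or 4 or KO replicate 2, 3 or 6 (exact permutation p 0.0563 to 0.0866). Cox6a2, Cox7b2 and Cox8b were at or below 0.5 FPKM in every library.

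**Figure D3:**
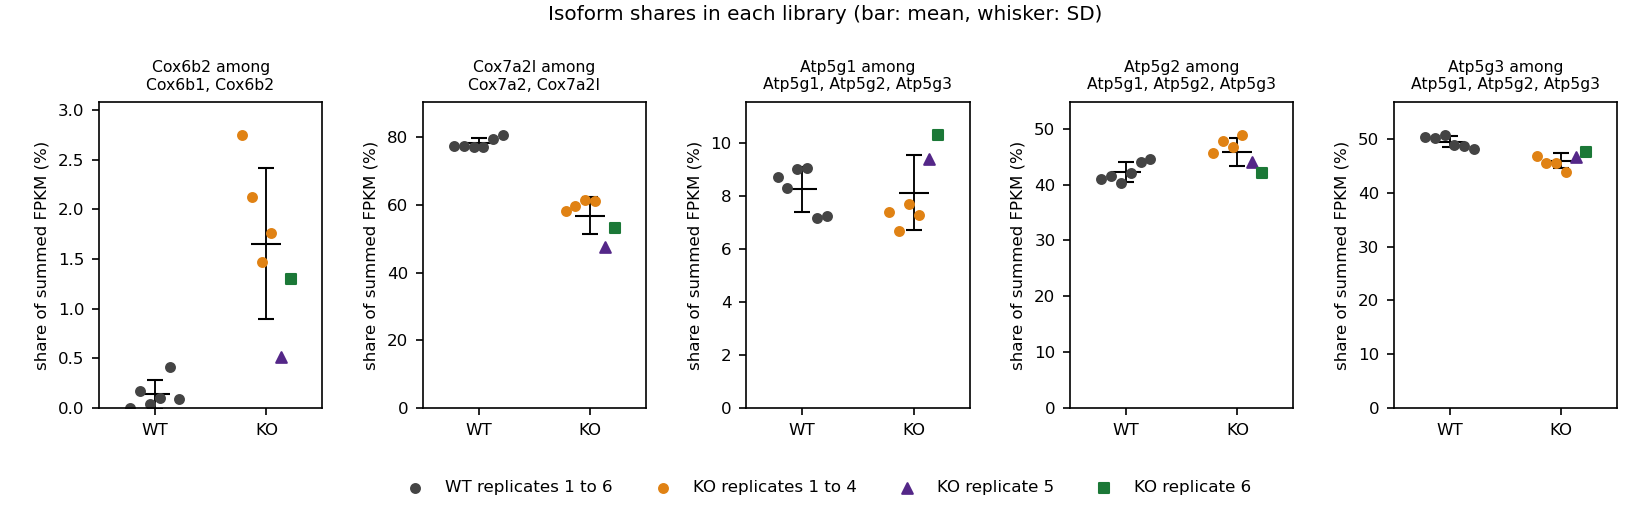
Share of one isoform in the summed FPKM of its isoform set (y axis, percent, from 0), in each library with the mean and SD. The Cox7a2l panel shows 77.2 to 80.8% in WT and 47.7 to 61.6% in KO, and the Atp5g1 panel shows overlapping genotypes.

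Of the 9 assembly factors of complex IV, 5 rose (55.6%) and 1 fell (11.1%), against 32.6% and 30.9% of all genes tested. Cox19, a protein of the intermembrane space involved in copper supply, read 3.41, 3.59, 3.5, 3.5, 3.98 and 3.54 FPKM in WT and 8.99, 8.32, 6.85, 6.59, 9.43 and 8.83 FPKM in KO. KO replicates 5 and 6 were within the band of the other KO libraries, and all were above WT. Cox19 rose 2.28-fold, a log2 difference of 0.99 ± 0.082 (SE; limma adjusted p = 2.1e-07), the largest rise among the tested members. Cox17, the copper chaperone that feeds the same supply, fell 1.41-fold, from 5.49 ± 0.269 to 3.88 ± 0.474 FPKM (limma adjusted p = 0.00012), also without overlap. Cox14, needed early for the mitochondrially made core subunit, read 10.52, 10.74, 10.88, 10.94, 12.43 and 11.99 FPKM in WT and 23.86, 22.6, 23.67, 21.67, 17.25 and 10.87 FPKM in KO. It rose 1.78-fold (limma adjusted p = 0.0011), and KO replicate 6 lay in the WT range. Cox18, which inserts part of a core subunit into the membrane, rose 1.37-fold and Cox16 1.26-fold, each with KO replicate 6 in the WT range. Cox11, a copper carrier, rose 1.18-fold (limma adjusted p = 0.031), a call that was lost without WT replicate 2 or 4 or KO replicate 1. The heme A enzymes Cox10 and Cox15 did not pass (limma adjusted p = 0.16 and 0.15), nor did Cox20 (0.2), which passed without KO replicate 2 (log2 difference -0.33, limma adjusted p = 0.044).

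Complex V had members moving in both directions. Of its 17 members, all tested, 8 rose (47.1%) and 5 fell (29.4%), with a median log2 difference of 0.16. Of all genes tested 32.6% were higher and 30.9% lower, so the share that fell was near that of all genes. The rising members lay mostly in the membrane part and the falling ones in the catalytic head and the stalk that holds it. Of 5 subunits of the F1 head, 1 rose (20%) and 2 fell (40%). Of 4 subunits of the peripheral stalk, 1 rose (25%) and 3 fell (75%). Of 3 genes for subunit c of the ring, 1 rose (33.3%), and all 5 other Fo subunits rose (100%).

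The alpha and beta subunits, which alternate around the catalytic head, moved in opposite directions. Atp5a1, the alpha subunit and the most abundant member in WT, read 211, 218.38, 222.24, 223.75, 218.79 and 207.89 FPKM in WT and 180.22, 177.17, 174.54, 176.08, 190.38 and 146.38 FPKM in KO. Atp5b, the beta subunit, read 173.24, 177.97, 184.31, 187.91, 178.58 and 173.46 FPKM in WT and 217.61, 211.8, 206.73, 216.76, 265.47 and 231.15 FPKM in KO. For neither gene did the genotypes overlap, and on this per-length scale Atp5a1 was above Atp5b in 6 of 6 WT libraries and below it in 6 of 6 KO libraries. Atp5a1 fell 1.25-fold (log2 difference -0.32 ± 0.06 SE, limma adjusted p = 0.00039) and Atp5b rose 1.25-fold (0.32 ± 0.061 SE, limma adjusted p = 0.00045). Atp5c1, the rotating gamma subunit, fell by 0.16 on the log2 scale (limma adjusted p = 0.025). Atp5d and Atp5e, of the central stalk, did not pass (limma adjusted p = 0.68 and 0.16).

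In the peripheral stalk, which keeps the head from turning, Atp5o (the oligomycin sensitivity protein at its top) read 62.45, 60.73, 63.61, 60.4, 62.09 and 58.54 FPKM in WT and 47.9, 42.76, 42.15, 40.33, 46.51 and 42.76 FPKM in KO. All KO libraries were lower and close together, KO replicates 5 and 6 included. Atp5o fell 1.4-fold (log2 difference -0.48 ± 0.051 SE, limma adjusted p = 2.6e-06). Atp5h, subunit d, read 94.34, 89.73, 88.54, 90.94, 90.85 and 93.01 FPKM in WT and 83.67, 74.96, 75.87, 75.94, 82.35 and 72.5 FPKM in KO. It fell 1.18-fold without overlap (limma adjusted p = 0.00079). Atp5j, coupling factor 6, fell by 0.15 on the log2 scale (limma adjusted p = 0.028), and Atp5pb, subunit b, rose by 0.16 (limma adjusted p = 0.035) with KO replicate 6 below all of WT. Both of the latter calls rested on small margins: that of Atp5j was lost without any single one of WT replicates 1 to 4 or KO replicates 2 to 4 (adjusted p 0.051 to 0.067), and that of Atp5pb without any single WT library or KO replicate 1, 3, 4 or 5 (0.051 to 0.068).

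The c ring, which turns as protons pass, is built from an identical mature protein made by Atp5g1, Atp5g2 and Atp5g3. Atp5g2 read 61.67, 66.1, 64.93, 67.19, 68.36 and 67.96 FPKM in WT and 91.13, 86.87, 88.26, 89.91, 95.49 and 64.32 FPKM in KO. KO replicates 1 to 5 were above WT and KO replicate 6 inside its range, with a 1.3-fold rise over all (limma adjusted p = 0.0018). Atp5g3 read 75.99, 80.05, 82.05, 78.2, 75.43 and 73.37 FPKM in WT and 93.49, 82.6, 85.68, 80.53, 101.24 and 72.77 FPKM in KO. With KO replicate 6 below all of WT it did not pass (limma adjusted p = 0.1), and without that library it did (log2 difference 0.19, limma adjusted p = 0.014). Atp5g1 read 13.15, 13.19, 14.57, 14.49, 11.13 and 11.04 FPKM in WT and 14.74, 12.09, 14.46, 13.36, 20.4 and 15.79 FPKM in KO, where the groups overlapped (limma adjusted p = 0.13). Within the set, the share of Atp5g3 went from 49.5% ± 1.08 to 46% ± 1.35 (n = 6 each, exact permutation p = 0.00216, adjusted 0.00361) without overlap. The share of Atp5g2 went from 42.2% ± 1.78 to 45.9% ± 2.54 (n = 6 each, exact permutation p = 0.0216, adjusted 0.0271), with KO replicate 6 at 42.1% and KO replicate 5 at 44%. That difference missed the threshold without WT replicate 1 or 3 or KO replicate 2, 3 or 4 (adjusted p 0.0514 to 0.0541). Atp5g1 made up 8.25% and 8.12% (exact permutation p = 0.857).

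The other membrane subunits, which lie beside the ring and at the contact between paired ATP synthases, all rose. Atp5md, known as DAPIT, read 14.09, 14.77, 14.77, 15.53, 13.93 and 13.84 FPKM in WT and 25.96, 24.51, 25.77, 24.54, 44.02 and 19.45 FPKM in KO. The groups did not overlap, with KO replicate 5 far above and KO replicate 6 below the other KO libraries. Atp5md rose 1.89-fold (log2 difference 0.83 ± 0.14 SE, limma adjusted p = 0.00019). Atp5k, subunit e of the dimer contact, read 20.12, 20.6, 20.91, 21.51, 17.29 and 16.76 FPKM in WT and 36.79, 29.79, 29.42, 28.28, 44.66 and 31.53 FPKM in KO. It rose 1.71-fold without overlap (limma adjusted p = 5.5e-05). Atp5mpl, a small proteolipid, read 23.93, 24.71, 24.18, 24.37, 24.91 and 25.71 FPKM in WT and 32.68, 31.03, 30.69, 27.23, 38.05 and 24.83 FPKM in KO. Its KO replicate 6 lay inside the WT range and KO replicate 5 was the highest, with a 1.25-fold rise over all (limma adjusted p = 0.0071). Atp5j2, subunit f, rose 1.39-fold (limma adjusted p = 0.00029) and Atp5l, subunit g, 1.26-fold (limma adjusted p = 0.0077). For Atp5l, KO replicate 6 was at 7.62 FPKM, below every WT library (7.75 to 8.77).

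Summed over nuclear subunits, the complexes differed in size of change. Complex II subunits (4 genes) summed to 127.1 ± 3.79 FPKM in WT and 151.5 ± 15.1 in KO, 1.19-fold, and complex III with cytochrome c (10 genes) to 333 ± 6.81 and 471.2 ± 44.2, 1.41-fold. Complex IV subunits (17 genes) summed to 891.6 ± 12.7 and 1075 ± 146 FPKM, 1.21-fold, and those of complex V (17 genes) to 1036 ± 21.1 and 1068 ± 89, 1.03-fold (SD, n = 6 each throughout). No test was made of these sums, because the members were chosen with results known. Of these 4 sums, that of complex III alone was above WT in every KO library. KO replicate 6 alone had 0.972, 1.25, 0.878 and 0.922 times the WT mean for complexes II, III, IV and V, and KO replicate 5 had 1.33, 1.64, 1.26 and 1.18 times. For KO replicates 1 to 4 the ratios were 1.21, 1.4, 1.27 and 1.02. All members together made up 0.88 to 0.915% of the summed FPKM in WT, 1.05 to 1.11% in KO replicates 1 to 4, 1.16% in KO replicate 5 and 0.932% in KO replicate 6.

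**Figure D4:**
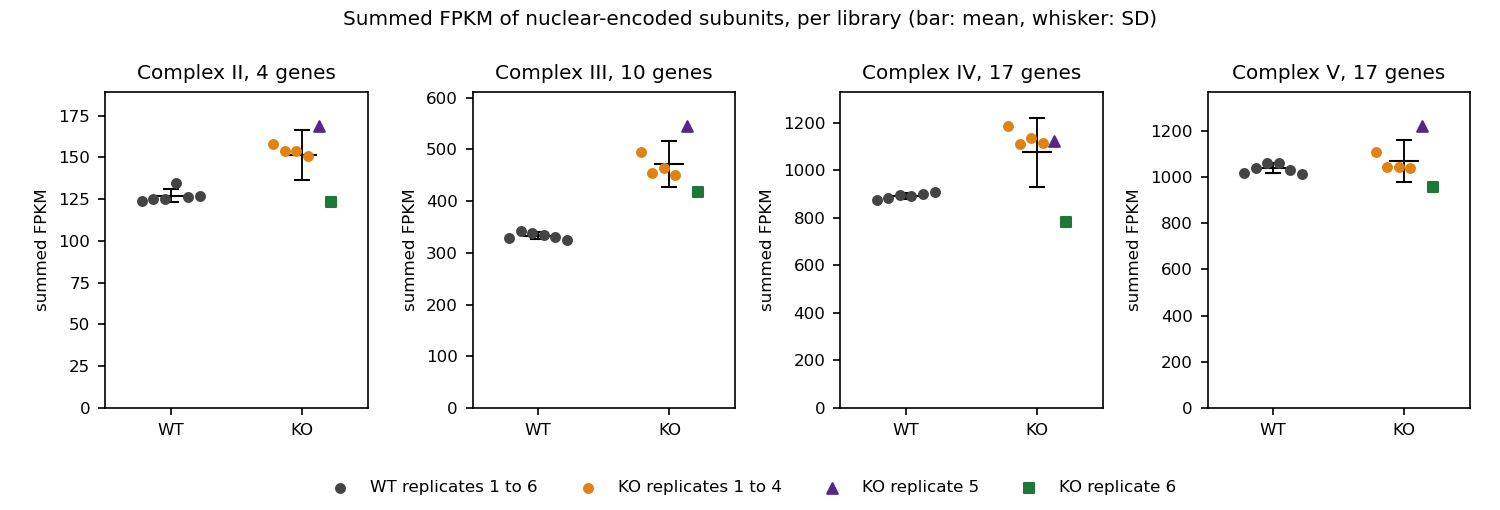
Summed FPKM of the nuclear subunits of each complex (y axis, from 0) in each library, with the mean and SD of each genotype; the complex III panel includes cytochrome c. KO replicate 6 is at 782.8 FPKM for complex IV, below the WT libraries, and at 417.6 for complex III, above them.

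Several members have near-identical copies that can share reads, and their levels are uncertain to that extent. The row Cox5b-ps averaged 31.5 FPKM over WT and 36.5 over KO, beside 47.2 and 51.3 for Cox5b. Cox6c2, a copy of Cox6c, went from 3.32 to 6.32 FPKM (limma adjusted p = 0.0064) and Atp5k-ps2 from 0.923 to 1.85 (limma adjusted p = 0.0047), in the direction of their parent genes. Both of these copies had KO replicate 6 inside the WT range. Atp5pb-ps (2.44 and 2.99 FPKM) did not pass, and the other 7 copies did not reach the level needed for the test.

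Many members are short. Of 17 tested members with transcripts under 600 bases in GENCODE M21, 14 were higher in KO (82.4%, median log2 difference 0.4), whereas 23.2% of the 1003 tested genes of that length were higher (median -0.05). The Spearman correlation of length with the log2 difference was -0.17 across 55 members and -0.03 across 11824 genes, given as a description since genes of one library share its depth and composition. The NRF1 letters were found in 5 of 27 members called higher, 4 of 6 called lower and 3 of 11 that did not pass, and the ETS letters in 12 of 27, 3 of 6 and 6 of 11. A match or its absence in the window says nothing on whether the factor binds there.

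Of the 6 partner subunits of complexes III to V that mitochondrial DNA encodes, 4 were lower in KO (66.7%) and 2 did not pass. Of all genes tested 30.9% were lower. Each of the 4 had all KO libraries below WT, as had 22.5% of all genes tested. mt-Co3, a core subunit of complex IV, fell 1.42-fold, from 2025 ± 104 to 1430 ± 249 FPKM (limma adjusted p = 0.00092). mt-Atp8, mt-Atp6 and mt-Co1 fell by 0.42, 0.34 and 0.25 on the log2 scale (limma adjusted p = 0.0097, 0.018 and 0.029). Leaving out either WT replicate 5 (adjusted p = 0.053) or WT replicate 6 (0.061) ended the mt-Co1 call. mt-Cytb, the only mitochondrially made subunit of complex III, ran from 3091.99 to 3266.48 FPKM in WT and read 3413.36, 3386.3, 3435.15, 3537.24, 2693.06 and 2375.49 FPKM in KO. KO replicates 1 to 4 were above every WT library and KO replicates 5 and 6 below. Over all libraries mt-Cytb and mt-Co2, a core subunit of complex IV, did not pass (limma adjusted p = 0.78 and 0.82). With KO replicates 1 to 4 alone both were higher (log2 difference 0.12 and 0.08, limma adjusted p = 0.0015 and 0.037). They were also higher with array weights (0.11 and 0.07) and with quantile normalization (0.15 and 0.24). The array weights of KO replicates 5 and 6 were 0.0772 and 0.0548, against 0.9685 to 2.431 for KO replicates 1 to 4. That fit is thus close to the fit on KO replicates 1 to 4 and adds little to it. Quantile normalization also ended the calls for mt-Co1 and mt-Atp8 (limma adjusted p = 1 and 0.16), and testing every gene without a filter ended those for mt-Co1, mt-Atp6 and mt-Atp8 (0.41, 0.14 and 0.11). Libraries were made from polyadenylated RNA, so mitochondrial levels depend also on the tails of those transcripts.

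Among 31 tested assembly and translation factors whose names fall outside the families, 9 were called higher (29%) and 8 lower (25.8%). Of the 30 that reached 1 FPKM in both genotypes 8 rose and 8 fell (26.7% each), against 30.8% and 30.9% of all such genes. Lyrm7, the chaperone that hands the Rieske protein to complex III, is the one left out of the second count, since it reached that level in KO only. It ran from 0.45 to 0.62 FPKM in WT and from 1.97 to 2.34 in KO. Bcs1l, which inserts the same Rieske protein, fell 1.75-fold, from 9.83 ± 0.539 to 5.63 ± 0.498 FPKM (limma adjusted p = 2.4e-07). Hccs, which attaches heme to cytochrome c and cytochrome c1, rose 2.53-fold, from 2.7 to 6.84 FPKM (limma adjusted p = 4.1e-08). Lrpprc, a stabiliser of mitochondrial messenger RNAs, fell 1.59-fold, from 10.6 to 6.67 FPKM (limma adjusted p = 7.3e-08). Of 13 tested regulators of mitochondrial gene expression, 3 rose (23.1%) and 5 fell (38.5%), against 32.6% and 30.9% of all genes tested. Esrra, the estrogen-related receptor alpha, rose 1.87-fold (6.05 to 11.3 FPKM), Nrf1 rose from 2.33 to 2.9 FPKM (limma adjusted p = 0.033, lost without WT replicate 3, 5 or 6 or KO replicate 5), and Gabpa, an ETS factor, fell from 10.3 to 8.49 (limma adjusted p = 0.013). Mterf3, a factor bound to mitochondrial gene expression, rose 1.61-fold (limma adjusted p = 3.9e-05). Tfb1m, which methylates mitochondrial ribosomal RNA, fell 2.29-fold (limma adjusted p = 4.6e-07), and the coactivator Ppargc1a was listed at 0 in WT and averaged 0.07 FPKM in KO.

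Of 13 general markers of mitochondrial content, 4 were higher (30.8%) and 5 lower (38.5%), shares near those of all genes tested (32.6% and 30.9%). Cs, citrate synthase, rose 1.37-fold (limma adjusted p = 1.6e-05) and Tomm22, an outer membrane import receptor, 1.9-fold (limma adjusted p = 2.2e-07). Slc25a5, an ADP/ATP carrier that exports the ATP made by complex V, rose 1.53-fold (limma adjusted p = 0.00035), whereas Vdac1, the outer membrane channel, fell 1.13-fold (limma adjusted p = 0.0023). The other ADP/ATP carrier of the list, Slc25a4, fell from 133.8 to 117.8 FPKM (limma adjusted p = 0.0096). Of 36 tested complex I subunits, 16 were higher (44.4%, against 32.6% of all genes tested) and 8 lower (22.2%, against 30.9%). Their median log2 difference was 0.17.

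The authors' deposited table of the same comparison marks 4 of the 72 members as significant, namely Cox19, Cox7a2l, Cox6b2 and Cox4i2, among 4411 genes in all. The mark is narrower than a small q-value: Sdhaf2, Cyc1 and Sdhaf3, among others, have a q-value listed as 0 there without the mark. The rule for the mark is not stated in these sources, so its count cannot be set against the calls above. In the authors' deposited table the fold is WT over KO, at 0.44 for Cox19, 2 for Cox7a2l and 0.06 for Cox6b2.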

How the data were processed

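Polyadenylated RNA was sequenced from 6 WT and 6 KO libraries, with strand marked by dUTP, per the labels' protocols. The authors deposited FPKM per gene and library, with their own fold and log2 fold changes, p-values and q-values; the test behind them is not stated in these sources. Build mm9 and the tools StringTie 1.3.4d, HISAT2 2.0.4, cutadapt 1.9, edgeR and DESeq2 are listed in the submitters' processing notes, without role or order. Read counts were not used here, so no count test was run.

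Members were matched by symbol. The members and gene lists were chosen with earlier results of these data known. Genes that reached 1 FPKM in 6 or more libraries were tested with limma 3.58.1 in R 4.3.3 (moderated test with a mean trend, WT and KO only, no covariate) on log2(FPKM + 1), with Benjamini-Hochberg adjustment over 11831 genes. Members under that level with at least 0.1 FPKM in a library, and isoform shares, were compared by two-sided exact permutation over all assignments of the libraries. Alternatives changed the pseudocount, filter, scaling, test and libraries used; KO replicates 1 to 4 alone was chosen after seeing the data. The procedure was checked on simulated data. Per-library values are printed for the called member with the smallest adjusted p and that with the largest difference in each role, the member with the highest mean, and members of computed isoform sets; genes outside the members are the called genes with the smallest adjusted p, up to 3 per list. Chosen after their values were seen were the per-library values of Sdhc and Cox4i2, and the naming of mt-Co1, mt-Cytb (with per-library values), mt-Co2, Bcs1l, Nrf1, Gabpa, Ppargc1a, Vdac1, Slc25a4 and single cell type markers. No 2 libraries had more than 2.35% of tested genes within 0.01 FPKM of each other. Gene coordinates are from GENCODE M21 (GRCm38), matched by identifier, since the deposited table has none that were used.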

Additional observations from a re-analysis of the deposited data

Results flagged for a closer look

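In 12 of the 82 groups of 6 values examined, 1 library lay far from the other 5 of its genotype; chance alone flags about 1 in 20 groups. KO replicate 6 was the low library in 7 of them. It stood at 36.81 FPKM for Uqcrfs1, the Rieske protein, where the other KO libraries ran from 57.1 to 59.38. For Uqcrq it stood at 32.43 FPKM against 40.3 to 44.24, for Cox8a at 133.07 against 238.54 to 268.43, for Atp5a1 at 146.38 against 174.54 to 190.38 and for Atp5g2 at 64.32 against 86.87 to 95.49. The summed FPKM of complex IV subunits was 782.8 in KO replicate 6 and 1108.9 to 1186.8 in the other KO libraries, and that of complex IV assembly factors was 45.1 against 57.4 to 63.3.

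KO replicate 5 was the high library for Atp5md, the DAPIT subunit of complex V, at 44.02 FPKM against 19.45 to 25.96. KO replicate 1 was high for Cox8b, the heart and muscle isoform, at 0.5 FPKM against 0 to 0.1. Among WT libraries, replicate 5 was high for Cox19 (3.98 FPKM against 3.41 to 3.59) and replicate 6 for Cox4i2 (0.16 FPKM against 0 in the others). WT replicate 4 was high for the summed complex II subunits, at 134.5 FPKM against 124 to 127.1.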

How the results depend on the processing

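For 30 named members, 669 of 695 recomputed differences kept their direction and their side of the threshold, 17 lost significance and 4 gained it. The other 5 changed sign without passing in either case, 3 for Sdhaf4 (0.03 without KO replicate 6 and with array weights, 0.1 with KO replicates 1 to 4) and 2 for Cox8b. Sdhc passed with the opposite sign (-0.07 over all libraries) with KO replicates 1 to 4 or array weights (0.12 in both). The array weights count KO replicates 5 and 6 very little, so these settings are nearly the same comparison. Among tested members, other scalings or tests ended the calls for Cox6b1 (adjusted p 0.051 with quantile normalization, 0.094 with a rank-sum test), for Cox8a (0.094) and Atp5g2 (0.066) with the rank-sum test, for Atp5mpl (0.084), Cox5a (0.086), Uqcrc1 (0.89) and Atp5pb (0.8) with quantile normalization, and for Atp5l (0.094), Cox6c2 (0.066) and Atp5pb (0.094) with the rank-sum test. They also ended those for Uqcrc1 with median-ratio scaling (0.068), Atp5j with TPM scaling (0.061) and Cox11 with no filter (0.052).

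The tested members called higher and lower were 30 and 10 with quantile normalization (29.5% and 34.7% of all genes), 38 and 8 with TPM scaling (33.9% and 29.5%), 29 and 9 with the rank-sum test (30.5% and 29.3%) and 41 and 9 with array weights (40.9% and 38%). Complex II had 0 members called lower by limma where at least 5 FPKM was required, since Sdhaf3 was then not tested. Complex V had 5 called higher with the rank-sum test, which ended the calls for Atp5pb, Atp5g2 and Atp5l. For each of these genes KO replicate 6 lay inside or below the WT range, and its part in the lost calls was not tested. Leaving out 1 library at a time gave 32 to 40 members higher and 8 to 9 lower. Over all genes these fits gave 31.0 to 35.9% higher and 29.0 to 32.6% lower. The largest count, 40 higher, came without KO replicate 6, as did the 35.9%. By complex, the higher and lower counts ran from 4 to 5 and from 1 to 1 for II, from 7 to 9 and 0 to 0 for III, from 12 to 14 and 3 to 4 for IV, and from 7 to 9 and 4 to 5 for V. The isoform share differences ran from -22.4 to -19.6 percentage points for Cox7a2l, 1.3 to 1.75 for Cox6b2, -0.573 to 0.161 for Atp5g1, 3.07 to 4.44 for Atp5g2 and -3.87 to -3.11 for Atp5g3.

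The replicate numbers did not pair the libraries: deviations of same-numbered WT and KO libraries correlated at -0.274 to -0.058. With the replicate number as a block, 33 members were higher and 7 lower, where 30.5% of all genes were higher and 28.3% lower. In complex V 3 members were lower, and the calls for Uqcrc1 (adjusted p 0.1), Atp5c1 (0.069), Atp5pb (0.062) and Atp5j (0.081) were lost. The block leaves 64 assignments. The share differences stayed at -21.4 (Cox7a2l) and -3.54 (Atp5g3), with exact adjusted p = 0.0521 each. Those of Atp5g2 (3.68, exact adjusted p = 0.156) and Cox6b2 (1.52) also stayed. Depth is unknown, so members under 1 FPKM carry an unknown counting error.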
